A study of Mus musculus with 6 samples.

Results

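The matrix metalloproteinases and their tissue inhibitors were followed in mouse lens capsules after a model of cataract surgery. The set was the 10 genes Mmp2, Mmp3, Mmp9, Mmp12, Mmp13, Mmp14, Mmp19, Timp1, Timp2 and Timp3, chosen by symbol from 56940 genes in the count files, and all 10 were found by Ensembl identifier. In the study the fiber cell mass was taken out of the lens, and the capsule with its attached lens epithelial cells stayed in the eye. RNA was sequenced from 3 libraries of capsules collected at 0 h and 3 libraries of capsules collected 72 h later, each library a pool of 5 capsules. All mice were C57BL/6 and labelled wildtype, and every animal had surgery on both eyes, 72 h apart. A tag, RUNX_Cre_N, stands in the description of each of the 6 libraries and is not explained in the sources used here. Ages were not given either, nor which animals went into which pool, so the p-values reflect only how far one pool lay from another.

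Matrix metalloproteinases are zinc enzymes that cut collagens, laminins and other matrix proteins, and also free growth factors and cytokines. Most are secreted as inactive precursors and are activated by other proteases, such as furin inside the cell or plasmin and other metalloproteinases outside it. The tissue inhibitors, or TIMPs, bind the active site of these enzymes. In the lens these proteins are known from studies of posterior capsule opacification, in which the epithelial cells left after surgery migrate, make scar matrix and contract the capsule.

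Promoter sequences are given for 5 members, and show the start regions of metalloproteinase genes with different levels at 72 h beside that of Timp1. The windows came from RefSeq on the mouse build GRCm38.p6, which is not the build of the counts (GRCm39), and 7 of the 10 members had one (Mmp3, Mmp12, Mmp13, Mmp14, Timp1, Timp2 and Timp3). Mmp2, Mmp9 and Mmp19 had no entry. Windows whose 120 bases before the start overlapped an annotated exon were not printed. This left out Timp2, Timp3 and the first start of Mmp12. The first 3 sequences belong to neighbours in the metalloproteinase cluster of chromosome 9. Each line gives the 120 bases before a start site, 5′ to 3′, with matches to the motifs below in capitals.
Mmp3, chr9:7445702-7445821, plus strand: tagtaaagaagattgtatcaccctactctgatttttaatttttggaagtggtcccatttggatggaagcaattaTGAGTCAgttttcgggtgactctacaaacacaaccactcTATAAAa
Mmp12, second start, chr9:7347254-7347373, plus strand: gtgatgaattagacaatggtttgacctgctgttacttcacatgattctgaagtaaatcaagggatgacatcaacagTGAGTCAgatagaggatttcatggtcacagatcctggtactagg
Mmp13, chr9:7272394-7272513, plus strand: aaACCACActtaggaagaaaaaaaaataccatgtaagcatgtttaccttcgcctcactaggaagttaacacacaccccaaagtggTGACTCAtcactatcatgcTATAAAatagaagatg
Mmp14, chr14:54431478-54431597, plus strand: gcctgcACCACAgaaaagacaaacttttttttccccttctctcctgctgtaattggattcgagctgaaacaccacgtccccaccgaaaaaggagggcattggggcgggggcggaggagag
Timp1, chrX:20870046-20870165, plus strand: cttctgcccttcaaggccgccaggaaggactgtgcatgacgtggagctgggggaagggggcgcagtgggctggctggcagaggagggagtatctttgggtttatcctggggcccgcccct

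Motifs were searched on both strands in the whole windows of 300 bases, from 250 before to 50 after the start. The AP-1 motif TGANTCA, which Fos and Jun proteins bind, matched in Mmp3, Mmp13 and the second start of Mmp12, with its first base 46, 35 and 44 bases before the start. It matched in 7.81% of the 32851 windows of all genes. The TATA motif TATAAA matched in the same 3 windows (13.6% of all windows), in Mmp12 just past the start and so outside the printed stretch, and the RUNX motif TGTGGT, read here as its reverse ACCACA, in Mmp13 and Mmp14 (16.8%). No motif letters overlapped each other. The windows of Timp1, Timp2, Timp3 and the first start of Mmp12 held none of these letters. A match describes the letters and does not show a bound site.

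Counts in genes ran from 11338820 to 12432688 per library at 0 h and from 8453450 to 8945397 at 72 h. Mitochondrially encoded genes took 3.75% to 3.91% of them at 0 h and 16.6% to 25.3% at 72 h. Levels are given as CPM, the counts of a gene relative to the effective size of its library after TMM scaling. Marker lists were checked beside the members. Lens epithelial markers such as Pax6 and Foxe3 were present in all libraries, and the summed level of the 10 listed genes, mostly the crystallins Cryaa and Cryab, was 79843 to 85071 CPM at 0 h and 10859 to 19541 CPM at 72 h, with 8 of 10 lower. Summed levels of 15 macrophage and monocyte markers were 33.8 to 48.1 CPM at 0 h and 239 to 422 CPM at 72 h, with 11 of 14 tested markers higher and none at 0. The 11 neutrophil markers summed to 0.931 to 2.45 CPM at 0 h and to 48.0, 24.4 and 165 CPM at 72 h. In 72 h replicate 3 most of that sum was Ltf (135 CPM, against 3.59 and 3.70 CPM in the other two), which was not called, and the granule genes Mpo, Elane, Camp and Ngp and the surface marker Ly6g were at 0 in all 6 libraries. Of 5 tested fibroblast and keratocyte markers, 3 were higher and 1 lower, the whole list of 8 summed to 210 to 274 CPM and 517 to 873 CPM, and Dpt was at 0 throughout. Lens fiber markers, led by crystallins, summed to 72289 to 79107 CPM at 0 h and 5736.5 to 11177 CPM at 72 h, with 9 of 9 lower. Smooth muscle and pericyte markers summed to 5.92 to 8.89 CPM and 41.7 to 92.1 CPM, with 2 of 5 tested genes higher. Keratins of the ocular surface summed to 5207 CPM in 72 h replicate 3, against 13.2 and 116.1 CPM in the other two 72 h libraries and 25.4 to 57.7 CPM at 0 h. In such bulk samples, a change in the number of cells of a type and a change in RNA per cell cannot be told apart.

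**Figure D1:**
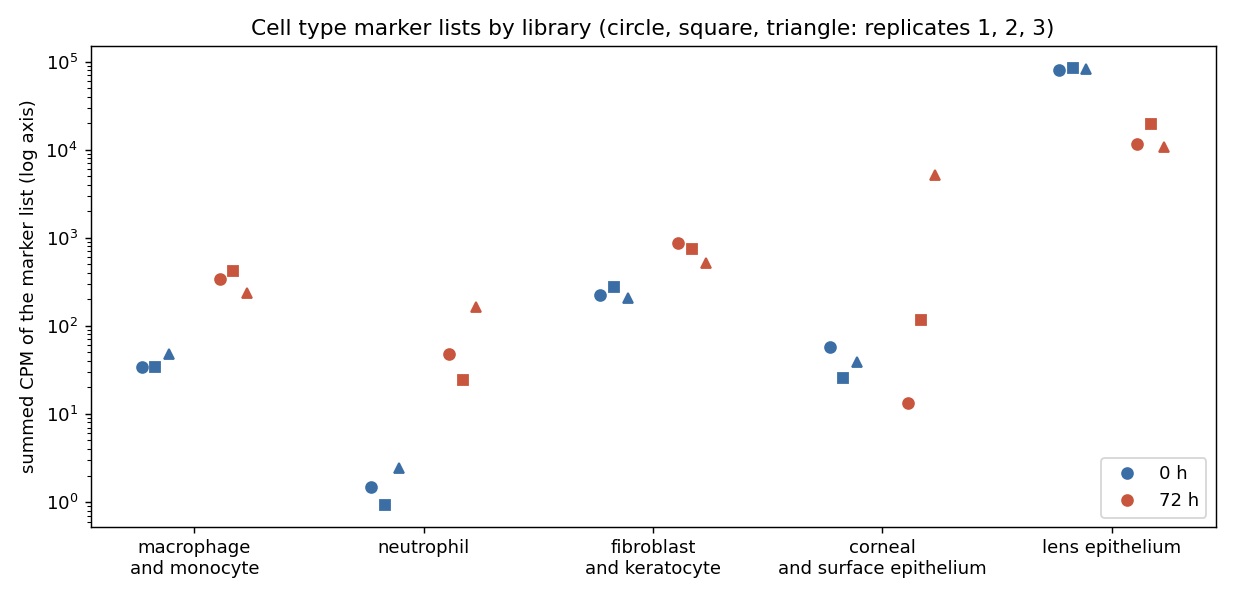
Summed CPM of 5 marker lists (y axis, log scale) in each library, with 0 h in blue and 72 h in red. Macrophage and neutrophil lists lie higher in all 3 libraries at 72 h, and the surface epithelium list reaches 5207 CPM in 72 h replicate 3 (triangle).

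The comparison of 72 h with 0 h asked how these genes changed as the cells left on the capsule responded to surgery. RNA of 5 metalloproteinases was higher at 72 h, and Mmp14 had the highest CPM per kb among them, while the inhibitors diverged: Timp1 rose and Timp2 fell. With edgeR (quasi-likelihood F test, Benjamini-Hochberg correction for the 15407 genes that entered the fit, called under 0.05), Mmp2, Mmp9, Mmp12, Mmp14, Mmp19 and Timp1 rose. These were 6 of the 8 members tested, where 21% of all tested genes were called higher. Timp2 fell, which made 1 of 8 members, where 17.5% of all genes were called lower and 38.5% were called in either direction. Timp3 was not called, and Mmp3 and Mmp13 had too few counts to be tested. Mmp9, Mmp12 and Timp1 passed the filter on low counts only through their 72 h libraries, so they could enter the test only as genes higher at 72 h, and the count is a description. In all 8 tested members the 3 libraries of one time did not overlap those of the other, 6 with 72 h above (26.5% of all genes) and 2 with 72 h below (26.9%), against 53.5% of all genes in either direction. The 5 tested members that passed through both times had log2 changes from −0.66 to 4.38, beside a median of −0.02 for all genes tested.

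**Figure D2:**
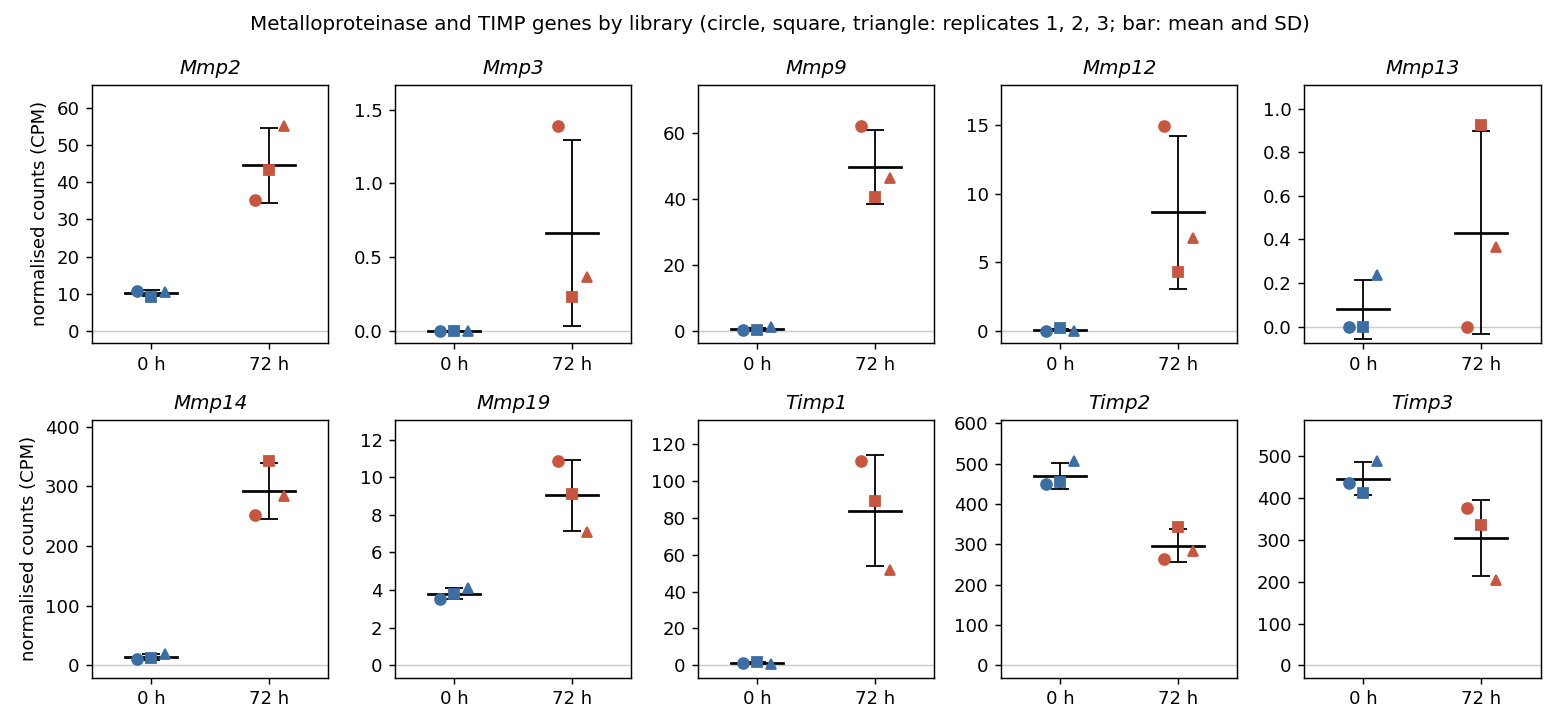
Normalised counts (CPM) of each member in each library at 0 h (blue) and 72 h (red), with the mean and SD of 3 libraries and a scale of its own for each gene. The 72 h libraries lie above the 0 h libraries for Mmp2, Mmp3, Mmp9, Mmp12, Mmp14, Mmp19 and Timp1, lie below them for Timp2 and Timp3, and overlap them for Mmp13.

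Mmp14 (ENSMUSG00000000957) encodes a membrane-anchored enzyme that cuts fibrillar collagen at the cell surface and activates the precursor of MMP2. It stood at 10.8, 11.9 and 19.2 CPM in the 0 h libraries and at 251, 343 and 283 CPM in the 72 h libraries. Every 72 h library was far above the highest 0 h library. The mean went from 14.0 ± 4.58 to 293 ± 46.6 CPM (SD, n = 3 each), a rise of 4.38 ± 0.25 (SE) on the log2 scale or 20.9-fold (edgeR adjusted p = 5.3e-06). It was the metalloproteinase member with the smallest p.

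The gelatinases MMP2 and MMP9 cut denatured collagen and basement membrane collagen IV. Mmp2 (ENSMUSG00000031740) was at 10.7, 9.14 and 10.5 CPM at 0 h and at 35.3, 43.3 and 55.3 CPM at 72 h. The groups were apart, with a narrow spread at 0 h, and 72 h replicate 3 was the highest library. Its mean of 10.1 ± 0.853 CPM became 44.6 ± 10.05 CPM, a log2 change of 2.14 ± 0.21 (4.41-fold, edgeR adjusted p = 3.7e-05).

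Mmp9 (ENSMUSG00000017737) was nearly absent at 0 h, with 1, 1 and 13 counts, and reached 537, 351 and 379 counts at 72 h. In CPM this was 0.0865, 0.0847 and 1.03 against 62.2, 40.5 and 46.3. Most of the 0 h counts lay in replicate 3, all 72 h libraries were far above it, and 72 h replicate 1 was the highest. The log2 change was 6.87 ± 0.64 (edgeR adjusted p = 1.5e-04). Its size hung on that library: without 0 h replicate 3 the 0 h counts were 2 and the ratio of pooled counts was 581 (95% exact counting interval 161 to 4810). MMP9 is also a granule enzyme of neutrophils, and the neutrophil marker Csf3r rose in the same libraries from 1.08 ± 0.249 to 23.2 ± 5.94 CPM. Of 11 neutrophil markers only 3 were tested, of which 2, Csf3r and Cxcr2, were called higher and Ltf was not. Without 72 h replicate 3, 4 were tested and all 4 were called higher. The granule genes Mpo, Elane, Camp and Ngp were at 0 in every library. The part of such cells in the Mmp9 level was not tested.

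Mmp12 (ENSMUSG00000049723) encodes the macrophage elastase, which cuts elastin. It had 0, 2 and 0 counts at 0 h and 129, 37 and 55 counts at 72 h, and its highest library was 72 h replicate 1. The ratio of pooled counts was 156 (95% exact counting interval 42.8 to 1300), and the gene was called higher (edgeR adjusted p = 3.3e-04). Both 0 h counts lay in replicate 2, without which the ratio was at least 70.1 against a floor of 3 counts over the 0 h group. Without 72 h replicate 1 it was 98.5 (26.5 to 826). Macrophage and monocyte markers summed to 343, 422 and 239 CPM in the 72 h libraries, and Mmp12 was at 14.9, 4.27 and 6.73 CPM. The sum was led by Lyz2 and Csf1r, and the order of the 72 h libraries differed between markers of the list. The relation of Mmp12 to such cells was not tested.

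The stromelysin gene Mmp3 (ENSMUSG00000043613), whose enzyme cuts many matrix proteins and activates other metalloproteinases, had 0 counts in all 0 h libraries and 12, 2 and 3 counts at 72 h. Pooled, it was at least 8.02-fold higher against a floor of 3 counts over the 0 h group. Most of the counts came from 72 h replicate 1, without which the bound was 3.57. A count of 0 still allows 0.237 to 0.259 CPM in a 0 h library. The collagenase gene Mmp13 (ENSMUSG00000050578), the main interstitial collagenase of mice, had 0, 0 and 3 counts at 0 h and 0, 8 and 3 at 72 h, so the groups overlapped. Its ratio of pooled counts was 5.19 (95% exact counting interval 1.37 to 29). Without 72 h replicate 2 it was 2.14 (0.287 to 16). Neither gene was called when the filter on low counts was dropped, with edgeR adjusted p of 0.0552 for Mmp3 and 0.471 for Mmp13. Of the 7 members with a promoter window, the 3 with AP-1 letters were the 3 with the lowest CPM per kb at 72 h. That order is of levels and not of changes. Mmp12, which has the letters, had a ratio of pooled counts of 156 (95% exact counting interval 42.8 to 1300). Of the members without them, Mmp14 rose 20.9-fold and Timp1 65.1-fold, and Timp2 fell (edgeR). A relation of the letters to level or change was not tested.

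Mmp19 (ENSMUSG00000025355), a secreted enzyme with basement membrane substrates, showed the smallest rise. Its values were 3.55, 3.81 and 4.10 CPM at 0 h and 10.9, 9.13 and 7.09 CPM at 72 h. The groups did not overlap, and 72 h replicate 3 was the lowest of its group. The log2 change was 1.24 ± 0.35 (2.36-fold, edgeR adjusted p = 0.018). The call was lost without 0 h replicate 1 (edgeR adjusted p = 0.0752), 0 h replicate 2 (0.0696), 0 h replicate 3 (0.0598) or 72 h replicate 1 (0.0596), in a range of 0.0031 to 0.0752 over 15 alternatives. Tmem198b, on the opposite strand, overlaps Mmp19 in GENCODE M21 and held 506 counts at 0 h and 679 at 72 h, against 138 and 231 for Mmp19. Here and below, overlap was taken over whole gene spans, and shared exon bases were not determined. Reads of any shared exon could be told apart only by strand. The strand setting used in counting was not given in the sources used here.

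Timp1 (ENSMUSG00000001131) encodes a soluble inhibitor that binds most secreted metalloproteinases, also as a complex with the MMP9 precursor, but inhibits MMP14 poorly. It was at 1.12, 1.78 and 0.947 CPM at 0 h and at 111, 89.3 and 51.6 CPM at 72 h. All 72 h libraries were far above all 0 h libraries, and 72 h replicate 3 was the lowest of them. Its mean of 1.28 ± 0.438 CPM became 84.0 ± 30.1 CPM, a log2 difference of 6.02 ± 0.37 (65.1-fold, edgeR adjusted p = 5.1e-06). Timp1 lies in the neuronal gene Syn1 on the opposite strand, which had 184 counts at 0 h and 431 at 72 h, against 46 and 2154 for Timp1.

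Timp2 (ENSMUSG00000017466) encodes the inhibitor that both blocks MMP14 and bridges it to the MMP2 precursor. It was the most abundant member by CPM at 0 h, at 449, 454 and 508 CPM, and was at 265, 344 and 283 CPM at 72 h. All 72 h libraries lay below all 0 h libraries. The fall was −0.66 ± 0.12 on the log2 scale, 1.58-fold lower (edgeR adjusted p = 0.0016). The gene Cep295nl overlaps Timp2 on the same strand and had 335 counts at 0 h and 369 at 72 h, against 16995 and 7573 for Timp2.

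Timp3 (ENSMUSG00000020044) encodes a TIMP that stays bound to the matrix and also inhibits ADAM17. It stood at 438, 413 and 490 CPM at 0 h and at 377, 336 and 204 CPM at 72 h. The groups did not overlap, but 72 h replicate 3 was well under the other two. The log2 change of −0.55 ± 0.21 was not called (edgeR adjusted p = 0.073). It was called lower with DESeq2 (adjusted p = 0.023), without 72 h replicate 1 (edgeR −0.73, adjusted p = 0.0325) and without 72 h replicate 3 (edgeR −0.31, adjusted p = 0.0187), in a range of 0.0187 to 0.216 over 15 alternatives. Timp3 lies in Syn3 on the opposite strand, which had 329 counts at 0 h and 166 at 72 h, against 16154 and 7832 for Timp3. TIMP3 is also made by the pigment epithelium of the eye, and in a list of 7 pigment cell markers 3 fell and none rose. Rpe65, the retinoid isomerase of that epithelium, went from 9.47 ± 0.442 CPM at 0 h to 0, 0 and 1 counts at 72 h (edgeR adjusted p = 4.1e-05), and Rlbp1, a retinoid carrier, from 11.8 ± 1.63 to 1.11 ± 0.658 CPM (edgeR adjusted p = 5.6e-04). Rpe65 and Rlbp1 lie outside the rule for named genes and were chosen after their values were seen. The other fall was Pmel. Tyr, Tyrp1, Dct and Mlana were not called, with log2 changes of −0.31, −0.14, −0.03 and 1.05. The summed list, led by Dct and Tyrp1, was at 53.5 to 87.5 CPM and 18.7 to 65.1 CPM. Photoreceptor markers summed to 629 to 1535 CPM and 52.6 to 129 CPM, and lens fiber markers fell as given above. The part of these cells in the Timp2 and Timp3 levels was not tested.

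The library with the high keratin level, 72 h replicate 3, was left out in turn. The members that rose did so too in the remaining 5 libraries, with log2 changes of 1.97 for Mmp2, 6.93 for Mmp9, 7.17 for Mmp12, 4.41 for Mmp14, 1.40 for Mmp19 and 6.29 for Timp1 (edgeR adjusted p at most 0.0065). Timp2 was at −0.62 (edgeR adjusted p = 5.3e-04).

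**Figure D3:**
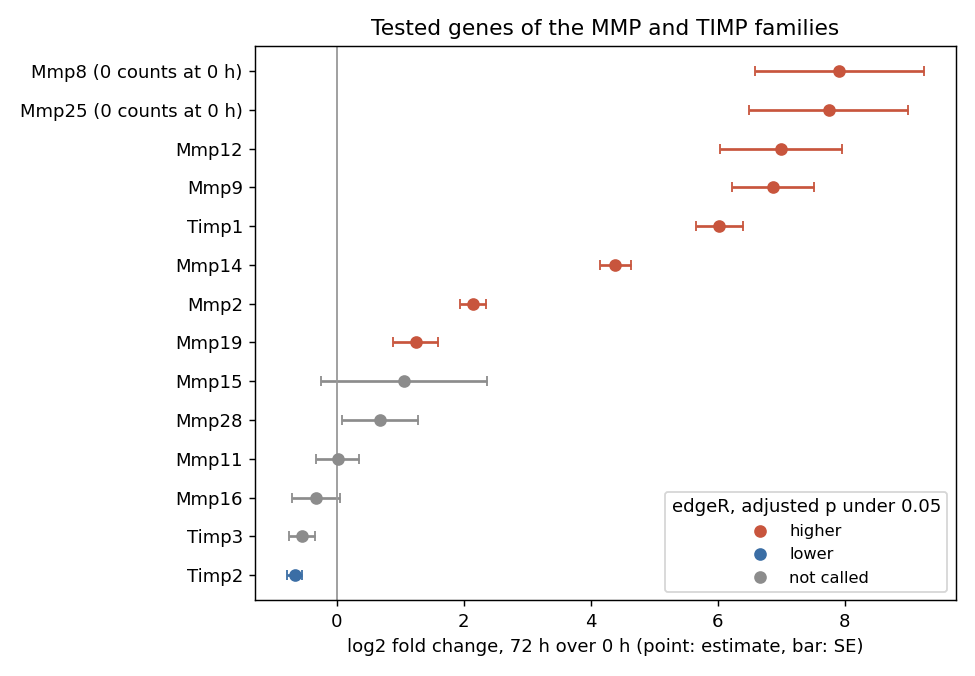
Log2 fold change of 72 h over 0 h (x axis, point with SE) for the 14 tested genes of the 2 families. Timp2 at −0.66 is the only one called lower, and the fitted values of Mmp8 and Mmp25, with 0 counts at 0 h, depend on the prior count.

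To compare levels between genes, CPM were divided by the exon length of each gene in kb. By this measure the inhibitors dominated at 0 h. Timp2 was at 121 ± 8.35 and Timp3 at 54.9 ± 4.81 CPM per kb, each apart from the next gene in all libraries. Mmp2 (3.00 ± 0.253), Mmp14 (2.35 ± 0.768), Timp1 (1.44 ± 0.493) and Mmp19 (1.08 ± 0.0787) followed, and no neighbours among these 4 were separated beyond the spread of their libraries. Mmp9, Mmp13, Mmp12 and Mmp3 lay below them at 0.113 CPM per kb or less.

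At 72 h the order was different. Timp1 was at 94.6 ± 33.9 and Timp2 at 76.2 ± 10.7 CPM per kb, with overlapping libraries. Without 72 h replicate 1 Timp2 came before Timp1. Mmp14 (49.1 ± 7.82) and Timp3 (37.5 ± 11.1) came next and overlapped each other. Mmp9 (14.0 ± 3.16) and Mmp2 (13.2 ± 2.98) also overlapped, and were apart from Timp3 above and Mmp19 (2.56 ± 0.537) below. Mmp12, Mmp3 and Mmp13 stood at 1.19 ± 0.771, 0.368 ± 0.352 and 0.161 ± 0.174 CPM per kb. The first place of Timp1 hung on the division by length. In plain CPM at 72 h, Timp1 (84.0 ± 30.1) lay below Timp3 (306 ± 90.6), Timp2 (297 ± 41.6) and Mmp14 (293 ± 46.6).

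Summed over the 7 metalloproteinase members, the level was 6.02, 5.84 and 7.88 CPM per kb at 0 h and 76.1, 85.5 and 80.3 CPM per kb at 72 h. The groups were far apart, and the 72 h libraries lay close to one another. Summed over the 3 TIMPs it was 170, 169 and 192 CPM per kb at 0 h and 239, 230 and 156 CPM per kb at 72 h, so the groups overlapped. TIMP RNA thus exceeded metalloproteinase RNA by a ratio of 28.3, 29.0 and 24.3 at 0 h and of 3.14, 2.69 and 1.94 at 72 h. The direction of the TIMP sum hung on the measure. Per kb its mean was 177 ± 12.6 at 0 h and 208 ± 45.8 at 72 h. Without division by length it was lower at 72 h, at 918.6 CPM and 687 CPM. These sums and ratios are of RNA, were not tested, and say nothing of enzyme activity.

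**Figure D4:**
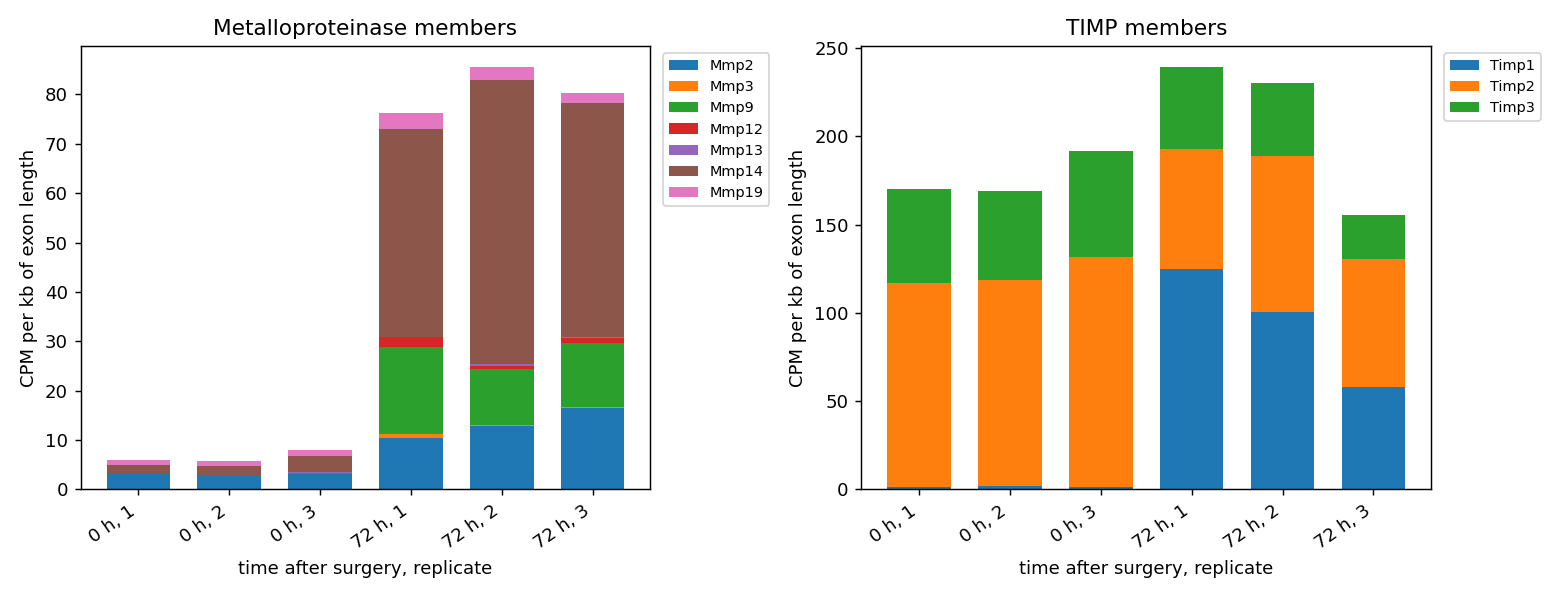
Level of each member in CPM per kb of exon length (y axis), stacked for each library (x axis), with metalloproteinases on the left and TIMPs on the right, on different scales. Mmp14 makes up 55.4% to 67.3% of the metalloproteinase bars at 72 h, and Timp1 grows from at most 1.18% of the TIMP bars at 0 h to 37.3% to 52.3% at 72 h.

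The makeup of both sums changed in every library. Mmp2 was 46.2% ± 6.67 of the metalloproteinase sum at 0 h and 16.4% ± 3.54 at 72 h, and Mmp19 went from 16.6% ± 1.87 to 3.19% ± 0.786 (SD, n = 3 each). Mmp14 went from 35.1% ± 5.48 to 60.6% ± 6.09, and Mmp9 from 1.5% ± 1.89 to 17.6% ± 4.96. Mmp2 and Mmp19 RNA were thus higher at 72 h yet a smaller share of the sum. Among inhibitors, Timp2 was 68.2% ± 0.576 of the sum at 0 h and 37.8% ± 9.12 at 72 h, and Timp3 went from 31.0% ± 0.863 to 17.8% ± 1.65.

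MMP14, TIMP2 and the MMP2 precursor form the complex in which MMP2 is activated, so the RNAs of its parts were set side by side. Per kb, Timp2 exceeded Mmp14 by 63.6, 58.2 and 40.4 times at 0 h and by 1.61, 1.53 and 1.53 times at 72 h. The 72 h ratios were close to one another, also in replicate 3, whose keratin RNA stood apart. Timp2 exceeded Mmp2 by 40.4 ± 3.56 times at 0 h and by 5.92 ± 1.32 times at 72 h. Mmp14 was 0.783 ± 0.238 times Mmp2 at 0 h and 3.80 ± 0.814 times at 72 h. The ratio of Timp1 to Mmp9 was 51.8, 83.7 and 3.68 at 0 h and 7.12, 8.78 and 4.44 at 72 h, with overlapping groups, and rests at 0 h on very few Mmp9 counts.

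Of the other 16 metalloproteinase genes looked up and Timp4, 6 passed the filter. Of all tested genes 21% were called higher and 17.5% lower, and of these 6 genes 2 rose and none fell. Both were genes known from neutrophils. Mmp8, the neutrophil collagenase, had 0 counts at 0 h and 42, 19 and 14 at 72 h, at least 35.4-fold higher (edgeR adjusted p = 0.0023). Mmp25, a lipid-anchored enzyme of leukocytes, had 0 counts at 0 h and 17, 23 and 26 at 72 h, at least 31.1-fold higher (edgeR adjusted p = 0.0019). Both could pass the filter only through their 72 h counts.

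Mmp11, Mmp15, Mmp16 and Mmp28 were not called. Mmp11, a stromelysin, averaged 7.85 ± 2.23 CPM at 0 h and 7.91 ± 1.74 CPM later. The membrane enzyme gene Mmp15 was at 7.70, 10.5 and 9.39 CPM at 0 h and at 2.43, 2.77 and 52.2 CPM at 72 h. The high library was replicate 3, the one with the high keratin level, and without it Mmp15 was called lower (edgeR log2 change −1.81 ± 0.39, adjusted p = 0.0021). Mmp16, another membrane enzyme, was at 5.62 ± 0.720 and 4.47 ± 0.844 CPM, and Mmp28, an epithelial member, at 4.11 ± 2.32 and 6.60 ± 4.64 CPM. The other 11 genes did not pass, and Mmp1a, Mmp1b, Mmp7, Mmp20 and Timp4 had 0 counts in all libraries.

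The counts of partner genes that follow stand beside 21% of all tested genes called higher and 17.5% called lower, and a median log2 change of −0.02. Of 12 tested genes that activate or anchor metalloproteinases, 7 rose and 1 fell, with a median log2 change of 2.49. Plaur, the urokinase receptor, had 0 counts at 0 h and 58.1, 46.1 and 37.4 CPM at 72 h. Furin, the protease that cuts the precursor of MMP14, rose from 101 ± 6.41 to 348 ± 45.4 CPM (log2 change 1.79 ± 0.12, edgeR adjusted p = 3.9e-06). Plat, tissue plasminogen activator, rose by 3.19 ± 0.18 on the log2 scale. Bsg, the surface glycoprotein basigin known for inducing metalloproteinases in neighbouring cells, fell from 1065 ± 18.7 to 581 ± 84.7 CPM (−0.87 ± 0.12, edgeR adjusted p = 2.8e-04). Leaving out 72 h replicate 3 gave 8 that rose and 2 that fell.

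Among other inhibitors and clearance receptors, 5 of 13 tested genes rose and 3 fell, with a median log2 change of 0.46. The list also holds other binding partners, such as Lcn2, which forms a complex with MMP9 and was among those that rose. The counts are thus not of inhibitors alone. Thrombospondin 1 (Thbs1), a matrix protein that binds MMP2 and MMP9, rose from 16.0 ± 3.63 to 629 ± 215 CPM (5.30 ± 0.33, edgeR adjusted p = 4.0e-05). A2m, a broad protease trap, rose by 2.42 ± 0.44 on the log2 scale. Reck, a membrane-anchored inhibitor of MMP2, MMP9 and MMP14, fell from 16.0 ± 1.42 to 6.91 ± 3.64 CPM (−1.21 ± 0.36, edgeR adjusted p = 0.023). The testican genes Spock3 and Spock2 fell by 3.11 ± 0.47 and 1.19 ± 0.28 (log2). With 72 h replicate 3 left out, 14 genes were tested, of which 8 rose and 3 fell.

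Among genes of matrix proteins that these enzymes cut, 9 of 24 rose and 8 fell, and the median log2 change was 0.03. The genes with the smallest p among those that rose were Fn1, Col1a1 and Tnc, all of wound or scar matrix. Col1a1, a chain of collagen I, rose from 4.73 ± 0.407 to 612 ± 147 CPM (7.01 ± 0.21, edgeR adjusted p = 3.5e-08). Those with the smallest p among the falls were the basement membrane genes Col4a1, Col4a2 and Nid1. The other falls were Hspg2, Col4a4, Col4a3, Lamb2 and Col4a5 (edgeR adjusted p from 4.8e-04 to 0.042). All 8 falls of the list were thus basement membrane genes. Some other basement membrane genes of the list did not fall: Col4a6 went from 466 ± 39.1 to 690.4 ± 54.2 CPM and Lamc1 from 304 ± 27.0 to 435 ± 92.1 CPM, both called higher (edgeR adjusted p = 0.0019 and 0.021), and Lama1, Lama5, Nid2 and Col18a1 were not called. The basement membrane genes other than Col4a1, Col4a2 and Nid1 lie outside the rule for named genes and were chosen after their values were seen. Col4a2, a chain of collagen IV, fell from 4464 ± 571 to 1701 ± 223 CPM (−1.39 ± 0.13, edgeR adjusted p = 3.0e-05), and Nid1, which links collagen IV to laminin, fell by 1.76 ± 0.19 (log2). The counts were 11 and 7 once 72 h replicate 3 was left out.

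Ligands known to induce metalloproteinases rose for 14 of 16 tested genes, and none fell. The median log2 change was 2.61. Pdgfb, a platelet-derived growth factor chain, rose from 0.860 ± 0.0112 to 161 ± 42.1 CPM (7.53 ± 0.25, edgeR adjusted p = 4.8e-08). Hbegf, a ligand of the EGF receptor, rose by 2.13 ± 0.12 and Tgfb1, transforming growth factor beta 1, by 1.84 ± 0.12 (log2). In a fit that left out 72 h replicate 3, 14 rose and 1 fell.

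Transcription factors of the AP-1, ETS, RUNX and NF-kappaB families rose for 17 of 21 genes and fell for 2, with a median log2 change of 3.16. Junb, an AP-1 subunit, rose from 6.29 ± 0.645 to 129 ± 13.6 CPM (4.36 ± 0.15, edgeR adjusted p = 6.4e-08). Ets1 rose from 2.84 ± 0.927 to 58.7 ± 1.28 CPM (4.36 ± 0.24, edgeR adjusted p = 1.1e-06), and Runx1 rose too. The ETS genes Etv5 and Etv1 fell by 0.51 ± 0.17 and 0.96 ± 0.33 (log2). After 72 h replicate 3 was left out, 17 factors rose and 1 fell. In the libraries in which these 5 lists of partner genes were measured, the macrophage and monocyte markers were at 239 to 422 CPM at 72 h and 33.8 to 48.1 CPM at 0 h, and the part of such cells in these counts was not tested.

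Genes with the profile most like that of a member were ranked by the root mean square difference of centred log2 CPM over the 6 libraries, among 9345 other genes whose mean reached 10 CPM. The values describe 6 libraries that share 1 contrast. For Mmp14 the nearest were Arhgap30, a GTPase activator gene (0.208), Ets1 (0.251) and the anchoring protein gene Akap12 (0.283). For Timp1 they were Zfp469, a zinc finger gene (0.163), the laminin receptor subunit Itga7 (0.263) and the receptor tyrosine kinase Axl (0.314). Axl went from 13.7 ± 1.63 to 780 ± 90.6 CPM. For Timp3, which changed little, they were the ribosomal protein gene Rps15a (0.0577), the ephrin receptor Epha5 (0.0757) and the coactivator Ncoa6 (0.0766).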

How the data were processed

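Per the labels' protocols, RNeasy columns (Qiagen) gave the RNA and a stranded SMARTer Pico v2 kit (Takara) the libraries. What the authors deposited is a table of whole-number counts for each library, 1 line per Ensembl gene, not normalised. The submitters' processing notes name HISAT2, HTSeq, edgeR and GRCm39; their versions, the annotation and the strand setting are not given in the sources used here. Reads assigned to no gene (44.0% ± 1.82 at 0 h, 49.7% ± 1.86 at 72 h; SD, n = 3) entered neither library sizes nor tests. Symbols came from a GENCODE table, which matched 51947 of 56940 identifiers, and exon lengths (union of all exons) from GENCODE M21, an annotation of GRCm38.

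Genes were kept by edgeR's filterByExpr (minimum count 10, minimum total 15), scaled by TMM and tested in edgeR 4.0.16 (R 4.3.3) by its quasi-likelihood F test, robust setting, with time as the only term (two-sided), Benjamini-Hochberg adjustment over 15407 genes, threshold 0.05. CPM use TMM-adjusted sizes of the filtered libraries. SEs are the absolute log2 change over the square root of F. Groups with 0 counts were compared with a floor of 3 counts over the group, and those with 1 to 3 by pooled counts. These bounds and intervals cover counting error only and leave out the variation between pools. They also treat each read as independent, although reads copied by PCR share a molecule. The fit was also run on simulated counts, with far fewer and smaller changes than in these data. That run did not cover genes near 0 counts at 0 h or scaling under many changes.

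The labels give both groups replicates 1 to 3. Deviations of same-numbered libraries from their group means correlated at −0.0368, 0.0585 and −0.0121. Those of differently numbered libraries ran from −0.0808 to 0.0905. With so few libraries these values could not show whether pools of the 2 times shared animals. The labels name no pairs, so the numbers were not taken as pairs in the main fit. That fit treated the 2 groups as independent. Since each animal had surgery on both eyes 72 h apart, the same animals could have given capsules to both times. A 0 h capsule could then come from an animal already operated on in the other eye. No library was a copy of another (chi-square per degree of freedom at least 7.08 for all pairs). Alternatives were other scalings and filters, DESeq2 1.42.0, limma voom (limma 3.58.1), a replicate block, leaving out mitochondrially encoded genes and leaving out each library.

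All members were named, every other family gene that passed the filter, and from each partner list up to 3 called genes with the smallest p in each direction; 1 gene that this rule names is not reported here. The members and lists were chosen with earlier results of these data known. No test was run over a list.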

Additional observations from a re-analysis of the deposited data

How the results depend on the processing

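Over 15 alternatives, the 8 tested members kept their direction in all 120 refits, and 113 kept their side of the threshold; the exceptions were Mmp19 (4 lost calls) and Timp3 (3 gained calls), given above, whose cause was not tested. The members called higher numbered 5 to 6 and those called lower 1 to 2 when a single library was left out, and 2 were called lower with DESeq2. With the replicate block, 6 members were called higher and 1 lower. Another scaling moved the median change of all genes by at most 0.0854 (upper quartile, to the lower side). Summed metalloproteinase levels became 92.6 CPM per kb at 72 h and summed inhibitor levels 201 CPM per kb at 0 h with mitochondrially encoded genes left out. Without division by length the sums in CPM were 28.5 and 406 for metalloproteinases and 918.6 and 687 for inhibitors at 0 h and 72 h, and the place of 4 members at 0 h and 2 at 72 h in the order of levels changed. Leaving out single libraries changed the place of 0 to 3 members at 0 h and of 0 to 6 at 72 h. At this depth, Mmp3 and Mmp13, with at most 12 counts in a library, could not be placed more closely.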

Other observations

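ADAM proteases, membrane-anchored sheddases of which some are inhibited by TIMP3, were also looked up. Of 9 tested genes, 6 rose and 1 fell, with a median log2 change of 0.55. Of all tested genes 21% were called higher and 17.5% lower, with a median of −0.02. Without 72 h replicate 3, 7 ADAM genes rose and 1 fell. Adam12, a gene of fusing and injured mesenchymal cells, was at 1.64, 5.50 and 6.63 CPM at 0 h and 267, 230 and 222 CPM at 72 h, a log2 change of 5.70 ± 0.50 (edgeR adjusted p = 4.9e-04). Adam19 rose by 4.25 ± 0.60 and Adam15 by 2.10 ± 0.31 on the log2 scale. Adam22, which lacks protease activity, fell from 95.2 ± 8.01 to 46.7 ± 6.15 CPM (−1.03 ± 0.14, edgeR adjusted p = 2.8e-04). Adam17, the sheddase that TIMP3 inhibits, rose from 43.0 ± 0.709 to 63.1 ± 0.888 CPM (log2 change 0.55 ± 0.12, edgeR adjusted p = 0.0044); it falls outside the rule for named genes and was chosen after its values were seen.

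Lcn2, which forms a complex with MMP9, was chosen in the same way. It was at 3.37, 4.06 and 2.45 CPM at 0 h and at 228, 283 and 30.6 CPM at 72 h, lowest in the replicate with the high keratin level, while Mmp9 in that library was at 46.3 CPM, between the other two.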
